A study of Arabidopsis thaliana with 15 samples.

Results

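The tau and phi glutathione transferases described here are 40 listed Arabidopsis thaliana genes, 28 of the tau class (GSTU) and 12 of the phi class (GSTF), chosen by locus identifier from the 32833 genes of the count table. Counts were high enough for a test in 31 of the 40, of which 23 were tau and 8 were phi. RNA-seq was done on aboveground tissue of plants of the ecotype Col-0, sprayed at 6 weeks of age and harvested 96 h later. Mock plants received phosphate-buffered saline (PBS), and the other plants received Williamsia sp. Leaf354, a non-pathogenic bacterium, suspended in PBS at 100000, 1000000, 10000000 or 100000000 colony-forming units (CFU) per ml, named here W5, W6, W7 and W8 in rising order. All plants, mock included, were grown aseptically in closed boxes on ground zeolite. Each of the 5 groups had 3 libraries, and each library was a pool of 2 plants from different boxes, so the spread between libraries is one between pools and not between single plants.

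Glutathione transferases join the tripeptide glutathione to reactive compounds, and the conjugates are then carried into the vacuole and broken down. The tau and phi classes are the large plant-specific classes of the family, and many of their genes lie in tandem arrays that arose by duplication. In leaves they are known for detoxifying herbicides and products of oxidation, for binding and moving indole compounds and flavonoids, and for steps of camalexin and glucosinolate metabolism. Several of them are widely used as markers of oxidative stress and of salicylic acid. TGA transcription factors, which bind DNA holding the letters TGACG, are known to act on some of their promoters.

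Sequences of 2 kinds bear on the results that follow. The first set is the 250 bases before the annotated start of 4 tau genes, read from the RefSeq assembly TAIR10.1 on the minus strand and written 5′ to 3′, with TGACG or its reverse complement CGTCA in capitals. GSTU9 (chr5:25089627-25089876), GSTU11 (chr1:26338819-26339068) and GSTU3 (chr2:12629641-12629890) are shown because their levels were highest in 1 mock library, and GSTU4 (chr2:12627892-12628141) because it had the largest fold change of the members called at W8 against mock.
GSTU9: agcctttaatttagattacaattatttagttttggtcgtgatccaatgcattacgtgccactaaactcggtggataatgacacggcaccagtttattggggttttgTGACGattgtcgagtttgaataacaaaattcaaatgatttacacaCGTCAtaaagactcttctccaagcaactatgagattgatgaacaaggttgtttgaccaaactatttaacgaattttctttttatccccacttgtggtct
GSTU11: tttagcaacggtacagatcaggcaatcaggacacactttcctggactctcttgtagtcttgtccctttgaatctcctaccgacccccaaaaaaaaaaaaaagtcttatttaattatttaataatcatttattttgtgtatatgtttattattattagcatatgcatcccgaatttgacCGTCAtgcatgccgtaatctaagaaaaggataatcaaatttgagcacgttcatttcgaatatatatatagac
GSTU3: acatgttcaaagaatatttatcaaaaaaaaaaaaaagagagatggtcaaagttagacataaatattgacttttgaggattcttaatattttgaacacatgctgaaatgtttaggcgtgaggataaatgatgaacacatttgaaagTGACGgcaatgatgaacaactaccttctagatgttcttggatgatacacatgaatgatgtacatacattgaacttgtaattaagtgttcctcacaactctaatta
GSTU4: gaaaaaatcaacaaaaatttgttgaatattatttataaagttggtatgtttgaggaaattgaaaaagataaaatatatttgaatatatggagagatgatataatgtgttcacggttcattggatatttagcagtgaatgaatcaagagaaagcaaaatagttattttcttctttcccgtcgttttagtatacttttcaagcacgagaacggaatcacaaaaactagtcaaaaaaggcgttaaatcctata

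The letters TGACG began 144 and 99 bases before the start of GSTU9, 105 before that of GSTU3 and 72 before that of GSTU11, and were not in the window of GSTU4. The windows of GSTU12 and GSTU16, which are not shown, had no match either. In mock replicate 3, the mock library meant above, GSTU12 was at 1.05 CPM, against 0 in mock replicates 1 and 2. GSTU16 was also highest in that library, at 36.3 CPM against at most 35.9 in any inoculated library. Both strands were searched, and overlapping matches on opposite strands were counted separately. At least 1 match was present in 14 of the 40 windows (35.0%), in 11 of 28 tau windows (39.3%) and 3 of 12 phi windows (25.0%). Over the same length, 5098 of 27443 protein-coding genes (18.6%) had one. Among genes called higher at W8 against mock the letters were present in 4 of 10, among those called lower in 1 of 6, and among those tested and not called in 7 of 15.

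The second set is the first 120 coding bases of GSTF2 (chr4:1111412-1111531) and GSTF3 (chr2:851987-852106), both on the minus strand, shown because these near-identical genes could be confused in read counting. Capitals mark the 4 positions at which they differ.
GSTF2: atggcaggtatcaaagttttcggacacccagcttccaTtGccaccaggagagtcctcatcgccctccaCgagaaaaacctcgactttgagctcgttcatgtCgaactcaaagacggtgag
GSTF3: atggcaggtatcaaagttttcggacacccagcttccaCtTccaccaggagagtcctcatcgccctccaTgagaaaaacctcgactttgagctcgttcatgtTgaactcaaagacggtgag

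Over their whole coding sequences GSTF2 and GSTF3 shared 94.5% of aligned bases. This was the highest identity of the 66 pairs of listed phi genes, whose median was 52.4%. Phi genes outside the list were not aligned. No stretch of 100 exon bases of GSTF2 or GSTF3 occurred elsewhere in the genome. In GSTF7, 17 of 966 such stretches (1.8%) did, so its values are uncertain. Only exact repeats were counted and the aligner is not stated in the sources used here. These shares therefore set no limit on reads shared between genes. The 378 tau pairs shared 46.0% to 85.5%, with the highest values inside the array GSTU1 to GSTU7.

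Library totals ran from 17811560 to 21870246 counts. Levels are counts per 1000000 reads counted in genes (CPM) after scaling by the trimmed mean of M values (TMM), and a gene with no count in a library may still have had up to 0.136 to 0.168 CPM there (3 counts, counting error only). Mock replicate 3 stood apart from mock replicates 1 and 2. On the first principal component over all tested genes it lay at 19.4, against -42.4 and -39.8, among the W7 libraries, and on the second at 50, against a highest value of 10.9 in any other library. Results that compare with mock are therefore also given without it where it matters. Of markers for the labelled tissue, 4 leaf mesophyll genes had a summed level of 33300 to 49000 CPM, against 0.92 to 2.22 CPM for 4 root markers, 1 of them at 0 in every library, and 2.11 to 5.57 CPM for 4 flower markers.

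At 96 h after the highest density phi genes were mostly higher, and tau genes moved in both directions. Of 8 phi genes tested at W8 against mock, 6 were called higher and none lower, with a median log2 fold change of 0.42. Of 23 tau genes tested, 4 were called higher and 6 lower, with a median of -0.27. Over all 19404 genes tested, 18.5% were called higher and 17% lower, and the median was 0.00. The difference between the classes was not itself tested. The call rule was an adjusted p under 0.05 in edgeR's quasi-likelihood test, with Benjamini-Hochberg adjustment over all genes tested.

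The summed level of the 12 phi genes was 1400, 1290 and 1410 CPM in the 3 mock libraries and 2190, 2200 and 2010 CPM at W8. Every W8 library lay above every library of the other groups. The summed level of the 28 tau genes was 1000, 881 and 961 CPM in mock and 801, 724 and 790 CPM at W8, which lay below mock without overlap but overlapped the W7 libraries. The phi genes took 59.1% ± 0.586 (SD, n = 3) of the summed level of all 40 in mock, 62.8% ± 0.917 at W7 and 73.4% ± 1.76 at W8. These sums rest on few genes. GSTF9, GSTF10 and GSTF7 made up 88.1% to 91.2% of the phi sum in each library, and GSTU19 and GSTU20 made up 55.8% to 65% of the tau sum.

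**Figure D1:**
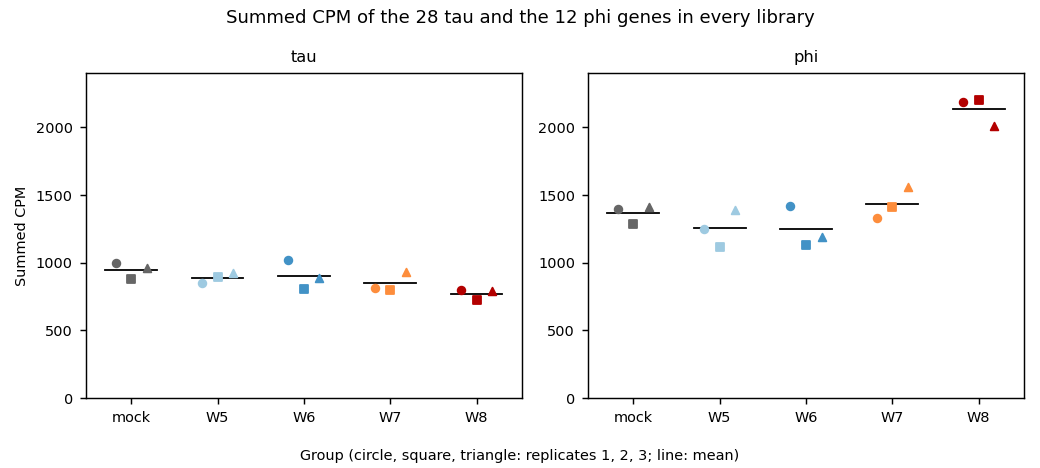
Summed CPM (linear axis from 0) of the 28 tau genes (left) and the 12 phi genes (right) in each library, by group, with symbols for replicates and a line for the mean. The phi sum at W8 lies between 2010 and 2200 CPM, above all other libraries, while the tau sum at W8 lies between 724 and 801 CPM.

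The leaf mesophyll markers moved in the same comparison. Their summed level was 42400 to 49000 CPM in mock and 33300 to 37100 CPM at W8, and all 4 were called lower, with log2 fold changes from -0.54 to -0.30. Their part in the falls of tau genes was not tested. In bulk tissue, fewer cells of a type and less RNA per cell cannot be told apart.

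GSTF7 (AT1G02920, chr1:658578-659980) is a gene commonly induced by pathogens and salicylic acid. Its level was 63.3, 59.1 and 85.9 CPM in mock, 57.2, 40.7 and 75.4 at W5, 71.9, 55.8 and 62.4 at W6, 103, 110 and 132 at W7, and 330, 420 and 299 at W8. The mock, W5 and W6 libraries overlapped, all W7 libraries lay above them, and all W8 libraries lay above W7. The log2 fold change at W8 against mock was 2.33 ± 0.23 (SE, n = 3 and 3; adjusted p = 2.35e-05), and at W8 against W7 it was 1.60 ± 0.23 (adjusted p = 0.00153).

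GSTF2 and GSTF3, the near-identical pair shown above, rose alongside it. GSTF2 (AT4G02520), which is known to bind indole compounds such as camalexin, was at 5.31, 6.23 and 10.6 CPM in mock, 6.46, 3.95 and 7.82 at W5, 7.48, 5.93 and 4.93 at W6, 9.44, 14.1 and 16.7 at W7, and 34.3, 37 and 31.4 at W8. GSTF3 (AT2G02930) was at 0.894, 0.664 and 1.19 CPM in mock, 0.351, 0.643 and 1.37 at W5, 1.48, 1.78 and 1.04 at W6, 2.07, 2.18 and 1.89 at W7, and 5.56, 7.98 and 5.04 at W8. In both genes the W8 libraries lay above all others. Only in GSTF3 did the W7 libraries also clear every mock library. At W8 against mock the log2 fold change was 2.20 ± 0.30 for GSTF2 (adjusted p = 0.000155) and 2.74 ± 0.34 for GSTF3 (adjusted p = 5.41e-06). Another annotated gene covers all but 39.5% of the exon bases of GSTF2, and the strand setting of the counting is not given in the sources used here, so reads of the 2 cannot be told apart.

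The 2 most abundant genes of the 40 rose by a smaller fold. Per kb of exon, GSTF9 had a mean level of 648 CPM per kb over all libraries, GSTF10 358, GSTU19 276, GSTU20 202 and GSTF7 108. GSTF9 (AT2G30860), a phi enzyme assigned to the conjugation step of glucosinolate synthesis, was at 801, 695 and 750 CPM in mock, 695, 640 and 750 at W5, 815, 626 and 675 at W6, 696, 768 and 825 at W7, and 1130, 1090 and 1040 at W8. Only the W8 libraries stood clear of the others, with a log2 fold change against mock of 0.53 ± 0.092 (adjusted p = 0.000177). GSTF10 (AT2G30870), its tandem neighbour with 77.6% coding identity, was at 388, 391 and 436 CPM in mock, 371, 320 and 432 at W5, 390, 312 and 333 at W6, 380, 384 and 437 at W7, and 535, 498 and 468 at W8. Its W8 libraries also lay above all others, but the log2 fold change of 0.30 ± 0.10 (adjusted p = 0.0275) lost its call in 5 alternatives, with adjusted p up to 0.111 without W8 replicate 1.

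The other phi genes were called at a small fold change, were lower without a call, or were scarcely expressed. GSTF8, a stress-inducible gene with chloroplast and cytosolic products, had 123 to 140 CPM in mock and 147 to 162 at W8 (log2 fold change 0.24 ± 0.069, adjusted p = 0.0116), a call lost under upper-quartile scaling (adjusted p = 0.0716) and without W8 replicate 3 (adjusted p = 0.0565). GSTF12, known as TRANSPARENT TESTA 19 and needed for anthocyanin accumulation, had a log2 fold change of -0.82 ± 0.43 (adjusted p = 0.16). GSTF4 had -0.57 ± 0.27 (adjusted p = 0.114), and its W8 libraries, at 0.814 to 0.931 CPM, lay below all others. Of the exon bases of GSTF4, GSTF8 and GSTF12, 70.7%, 90.9% and 90.1% are free of another annotated gene. GSTF5, GSTF11, GSTF13 and GSTF14 did not pass the filter, and GSTF11 was at 0 in all libraries. None of the exon bases of GSTF11 is free of another annotated gene, so its count of 0 may not measure its level.

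**Figure D2:**
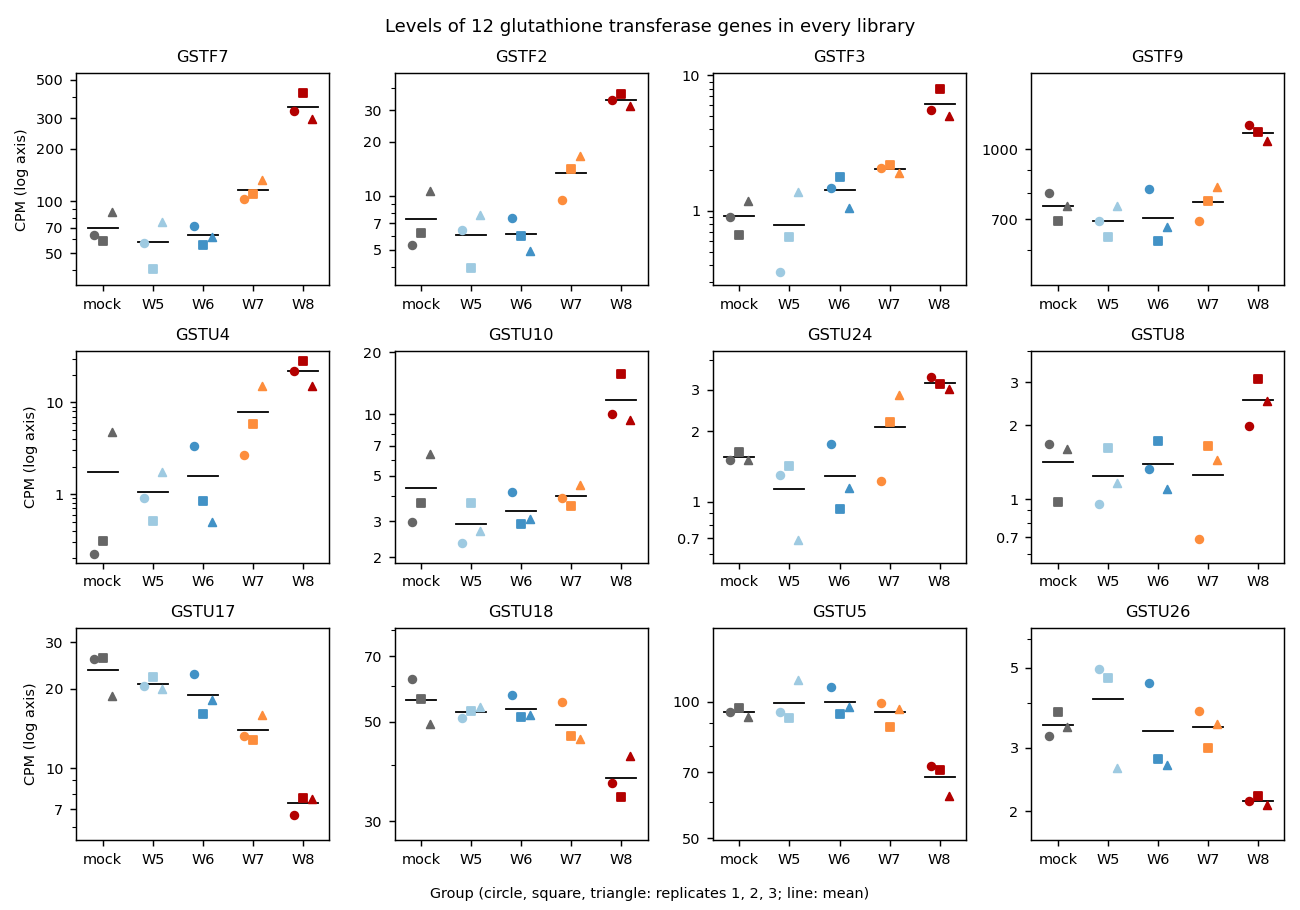
CPM (log axis) of 12 genes in each library, by group, with symbols for replicates and a line for the arithmetic mean. The top row of phi genes and the tau genes GSTU4, GSTU10, GSTU24 and GSTU8 are highest at W8, and GSTU17, GSTU18, GSTU5 and GSTU26 are lowest there.

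The tau class held both the largest rise and the largest fall. GSTU4 (AT2G29460, chr2:12626478-12627891) was at 0.223, 0.307 and 4.75 CPM in mock, 0.902, 0.505 and 1.74 at W5, 3.39, 0.841 and 0.493 at W6, 2.66, 5.77 and 15.3 at W7, and 22.1, 28.3 and 15.2 at W8. Mock replicate 3 was far above the other 2 mock libraries, and the lowest W8 library lay level with the highest W7 library. The log2 fold change at W8 against mock was 3.56 ± 0.97 (adjusted p = 0.015), and without mock replicate 3 it was 6.33 ± 1.2 (adjusted p = 0.00218). The call was lost without mock replicate 2 (3.07 on the log2 scale, adjusted p = 0.0528) and with the W8 and mock libraries fitted alone (adjusted p = 0.075).

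GSTU17 (AT1G10370, chr1:3396883-3398358), a gene tied to light signalling and to drought and abscisic acid responses, fell. Its level was 25.9, 26.1 and 18.8 CPM in mock, 20.5, 22.1 and 20 at W5, 22.7, 16.1 and 18.1 at W6, 13.2, 12.8 and 15.9 at W7, and 6.69, 7.75 and 7.66 at W8. The W7 libraries lay below all mock, W5 and W6 libraries, and the W8 libraries below all W7 libraries. The log2 fold change was -0.76 ± 0.14 at W7 (adjusted p = 0.0014) and -1.68 ± 0.14 at W8 (adjusted p = 1.54e-07). In all alternatives run, both calls held.

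Its tandem neighbour GSTU18 (AT1G10360), with 81.6% coding identity, fell less. GSTU18 was at 62.3, 56.1 and 49.4 CPM in mock, 51, 52.9 and 53.9 at W5, 57.3, 51.3 and 51.7 at W6, 55.3, 46.4 and 45.8 at W7, and 36.5, 34 and 42 at W8. The W8 libraries lay below all others, with a log2 fold change of -0.58 ± 0.093 against mock (adjusted p = 8.81e-05). The annotated exons of this pair overlap at their ends, so that 93.9% of the exon bases of GSTU17 and 93.0% of those of GSTU18 belong to 1 gene alone.

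Within the array GSTU1 to GSTU7 (chr2:12617936-12632538), whose coding sequences share 61.9% to 85.5% of bases, 1 of the 6 genes tested was called higher at W8 and 1 lower, shares near the 18.5% and 17% of all genes. The riser was GSTU4, and the faller was its neighbour GSTU5 (AT2G29450), first known as an auxin-induced gene. GSTU5 was at 95, 97.1 and 92.5 CPM in mock, 94.8, 92 and 112 at W5, 108, 94.1 and 97.2 at W6, 99.6, 88.2 and 96.5 at W7, and 72.2, 70.9 and 61.9 at W8. Its W8 libraries lay below all others, with a log2 fold change of -0.47 ± 0.08 against mock (adjusted p = 0.000147). GSTU5 was the dominant member, with a mean of 94.9 CPM in mock and 68.4 at W8, while the mean of GSTU4 went from 1.76 to 21.8 CPM. The summed level of the array was 102 ± 3.26 CPM (SD, n = 3) in mock and 95.3 ± 13.1 at W8. GSTU1, GSTU3, GSTU6 and GSTU7 were tested and not called, with log2 fold changes from -0.60 to 0.25, and GSTU2 was at 0 in all libraries. Only 29.7% of the exon bases of GSTU2 and 31.1% of those of GSTU7 are free of another gene.

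The array GSTU24 to GSTU26 (chr1:5869543-5876620) also held members that moved in opposite directions. GSTU24 (AT1G17170), which acts on the explosive TNT, was at 1.51, 1.63 and 1.51 CPM in mock, 1.3, 1.42 and 0.687 at W5, 1.77, 0.934 and 1.15 at W6, 1.23, 2.18 and 2.85 at W7, and 3.39, 3.19 and 3.01 at W8 (log2 fold change at W8 1.04 ± 0.30, adjusted p = 0.0114). GSTU26 (AT1G17190) was at 3.24, 3.78 and 3.42 CPM in mock, 4.96, 4.68 and 2.64 at W5, 4.53, 2.8 and 2.69 at W6, 3.79, 3 and 3.5 at W7, and 2.13, 2.21 and 2.08 at W8 (log2 fold change -0.70 ± 0.24, adjusted p = 0.0286). In GSTU24 the W8 libraries lay above all others and in GSTU26 below all others. The call of GSTU26 was lost in 6 alternatives, with adjusted p up to 0.0941 without mock replicate 2. Their neighbour GSTU25 did not pass the filter.

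GSTU10 and GSTU8, which lie in none of the arrays, rose. GSTU10 (AT1G74590) was at 2.96, 3.68 and 6.39 CPM in mock, 2.35, 3.67 and 2.7 at W5, 4.18, 2.9 and 3.07 at W6, 3.89, 3.54 and 4.52 at W7, and 10, 15.7 and 9.36 at W8. Its W8 libraries lay above all others, mock replicate 3 was the next highest, and the log2 fold change at W8 was 1.42 ± 0.27 (adjusted p = 0.000629). Of the exon bases of GSTU10, 90.5% are free of another annotated gene. GSTU8 (AT3G09270) was at 1.68, 0.971 and 1.6 CPM in mock, 0.952, 1.61 and 1.16 at W5, 1.33, 1.73 and 1.1 at W6, 0.688, 1.64 and 1.45 at W7, and 1.99, 3.1 and 2.52 at W8. Its W8 libraries lay above all others as well, but the log2 fold change of 0.84 ± 0.32 (adjusted p = 0.0484) lost its call in 12 alternatives, with adjusted p up to 0.203 without mock replicate 2.

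The most abundant tau genes showed no call. GSTU19 (AT1G78380), a major leaf enzyme active on model substrates, was at 332, 318 and 312 CPM in mock, 308, 302 and 313 at W5, 344, 276 and 322 at W6, 308, 303 and 318 at W7, and 308, 273 and 305 at W8. The W8 libraries lay below those of mock but among those of W5, W6 and W7, with a log2 fold change against mock of -0.12 ± 0.072 (adjusted p = 0.222). GSTU20 (AT1G78370), a partner of the jasmonate-conjugating enzyme JAR1, was at 315, 221 and 265 CPM in mock, 222, 270 and 241 at W5, 320, 209 and 247 at W6, 176, 187 and 275 at W7, and 195, 131 and 207 at W8. Its W8 libraries lay below mock and overlapped W7. The log2 fold change of -0.59 ± 0.23 (adjusted p = 0.0769) was called lower by DESeq2 (adjusted p = 0.0367) and limma voom (adjusted p = 0.0253).

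GSTU16 and GSTU13 completed the tau genes called lower. GSTU16 had a log2 fold change of -0.27 ± 0.074 (adjusted p = 0.00825). GSTU13, which acts beside PEN2 in the breakdown of indole glucosinolates during immunity, had -0.31 ± 0.10 (adjusted p = 0.0241), and its call was lost without mock replicate 3 (adjusted p = 0.0619), among 5 alternatives. The remaining tau genes tested were not called.

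**Figure D3:**
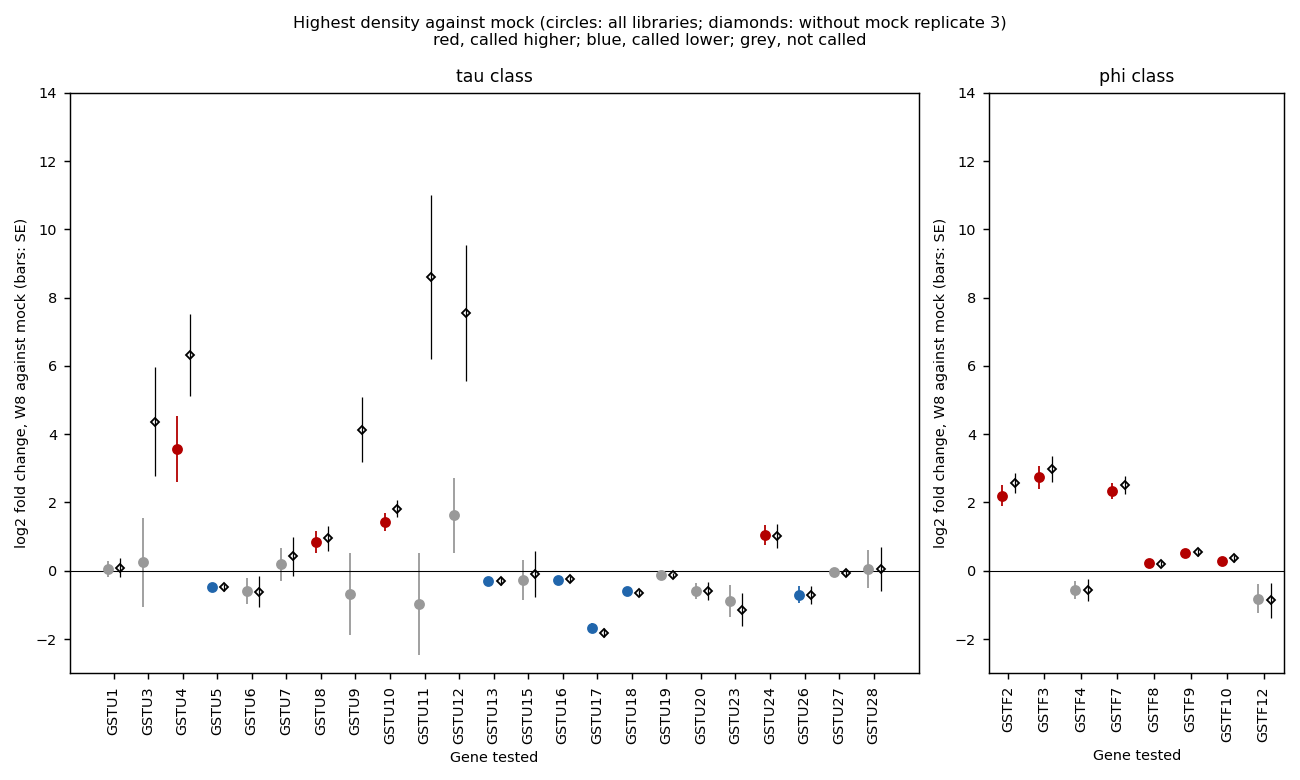
Log2 fold change with its SE at W8 against mock for the 23 tau (left) and 8 phi (right) genes tested, with all libraries (circles) and without mock replicate 3 (open diamonds). In the phi panel 6 circles are red and none is blue, and in the tau panel the diamonds of GSTU9, GSTU11 and GSTU12 lie far above their circles.

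GSTU3, GSTU9, GSTU11 and GSTU12 are described separately and were chosen after their values were seen. GSTU9 had 6 and 6 counts in mock replicates 1 and 2 and 575 in mock replicate 3, then 4, 3 and 4 at W5, 9, 10 and 6 at W6, 9, 15 and 21 at W7, and 46, 272 and 39 at W8. GSTU11 had 0, 0 and 311 counts in mock, 0, 0 and 1 at W5, 0, 0 and 14 at W6, 4, 4 and 26 at W7, and 51, 78 and 23 at W8. Mock replicate 3 was above every inoculated library in both genes.

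GSTU3 had 2, 1 and 92 counts in mock, 0, 0 and 2 at W5, 0, 12 and 27 at W6, 0, 4 and 21 at W7, and 46, 51 and 15 at W8. GSTU12, the tandem neighbour of GSTU11, had 0, 0 and 23 counts in mock, 0, 1 and 0 at W5, 0, 1 and 9 at W6, 0, 3 and 4 at W7, and 20, 47 and 6 at W8. In GSTU3 mock replicate 3 was again the highest library, and in GSTU12 it lay below W8 replicate 2. With all libraries none of the 4 genes was called at W8 against mock. Once mock replicate 3 was left out, GSTU9 was called higher (4.13 ± 0.95 on the log2 scale, adjusted p = 0.00499), as were GSTU11 (adjusted p = 0.0168) and GSTU12 (adjusted p = 0.00719). GSTU3 was not (adjusted p = 0.0558). Apart from mock replicate 3, GSTU9, GSTU11 and GSTU12 passed the filter on low counts only in W6, W7 or W8 libraries. Their calls without mock replicate 3 are therefore no independent result. Mean W8 levels were also set against the limit of 3 counts per library in mock replicates 1 and 2, both at 0. The W8 mean was 15-fold above that limit for GSTU11 and 7.15-fold for GSTU12. Without W8 replicate 2 these values were 11.1-fold and 3.84-fold. They allow for counting error in mock only, and not for the spread at W8.

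**Figure D4:**
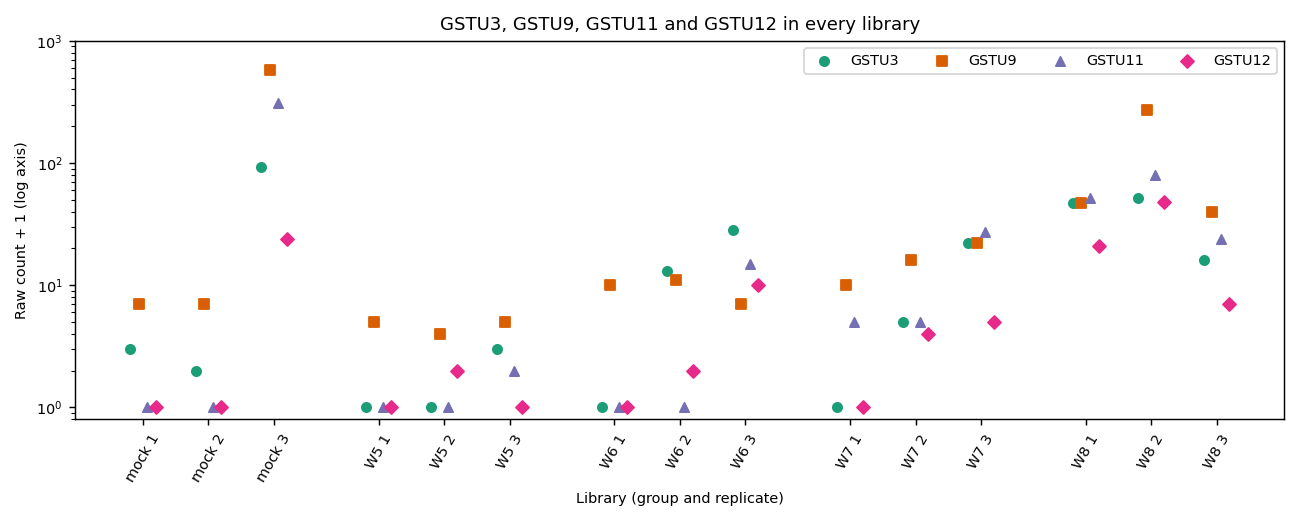
Raw count plus 1 (log axis) of GSTU3, GSTU9, GSTU11 and GSTU12 in each of the 15 libraries. Mock replicate 3 holds the highest count of GSTU3 (92), GSTU9 (575) and GSTU11 (311), and the W8 libraries lie above those of W5 in all 4 genes.

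Leaving out mock replicate 3 moved the count for the whole set at W8 to 13 of 31 called higher and 5 lower, against 20.5% and 17.8% of all genes. By class, 7 tau genes were then higher and 5 lower, and 6 phi genes higher and none lower. The 7 tau genes include GSTU9, GSTU11 and GSTU12, whose calls are no independent result.

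At lower densities few members were called, and all comparisons with mock share the same mock libraries. At W5 no member was called by edgeR, DESeq2 or limma voom, where 0.18% of all genes were called, and 5 members had an unadjusted p under 0.05. They were GSTU28, GSTF8, and GSTU3, GSTU9 and GSTU11, whose counts in mock replicate 3 were far above those in mock replicates 1 and 2. At W6 no member was called by any of the 3 tools either, against 1.28% of all genes, with 5 members at an unadjusted p under 0.05. GSTU9 and GSTU11 were again among them. At W7, GSTF3 was the 1 member called higher (log2 fold change 1.15 ± 0.35, adjusted p = 0.0378) and GSTU17 the 1 called lower, against 6.29% and 6.77% of all genes. The call of GSTF3 was lost in 7 alternatives, among them the removal of mock replicate 1 (adjusted p = 0.11), mock replicate 2 (adjusted p = 0.163) or any 1 of the W7 libraries.

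Without mock replicate 3, 4 members were called higher at W7 and 1 lower, against 9.98% and 9.78% of all genes. GSTU4 (4.85 ± 1.3 on the log2 scale, adjusted p = 0.0264), GSTF2 (adjusted p = 0.0137) and GSTF7 (0.92 ± 0.25 on the log2 scale, adjusted p = 0.0284) then joined GSTF3. With all libraries their log2 fold changes at W7 were 2.08 (adjusted p = 0.201), 0.85 (adjusted p = 0.0911) and 0.73 (adjusted p = 0.0628), and GSTF2 and GSTF7 were called by DESeq2 and limma voom.

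Comparisons among inoculated groups use no mock library. At W8 against W5, 11 members were called higher and 5 lower, where 18.1% and 15.2% of all genes were. All 6 phi genes of the W8 comparison with mock were again among the higher ones, at log2 fold changes from 0.42 (GSTF8 and GSTF10) to 2.98 ± 0.35 (GSTF3). GSTU12 was also called higher (adjusted p = 0.0308), on 73 counts at W8 and 1 at W5, a ratio of 71.8 with an exact 95% interval from 12.5 to 2870 for counting error only. GSTU12 passed the filter on low counts only through mock replicate 3, W6 replicate 3 and W8 replicates 1 and 2, the libraries in which it was highest, so its calls at W8 are no independent result. At W8 against W7, 7 members were called higher and 4 lower (6.79% and 5.32% of all genes). GSTU6 was lower there (log2 fold change -1.19 ± 0.37, adjusted p = 0.0389), a gene with 70.1% of its exon bases to itself. Between W6 and W5 no member was called (0.289% of all genes; 1 member at an unadjusted p under 0.05, and 0 calls by DESeq2 and limma voom). Between W7 and W6 none was called by edgeR (2.62% of all genes; 7 members at an unadjusted p under 0.05), 3 by DESeq2 and 1 by limma voom. A test for any difference among the 5 groups called 13 of 31 members, 7 tau and 6 phi, against 32.9% of all genes.

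Across the 12 inoculated libraries, a slope on log10 density was called rising in 14 of 30 members and falling in 4, against 19.4% and 15.4% of 19285 genes. Of the 8 phi genes, 6 rose and none fell. Of 22 tau genes, 8 rose and 4 fell. The 8 include GSTU3, GSTU9, GSTU11 and GSTU12, which passed the filter on low counts in no W5 library. The share of risers therefore rests in part on genes tested only because they were high at denser inoculation. The steepest slopes were those of GSTU11 (1.88 ± 0.36 log2 units per unit of log10 density, adjusted p = 0.00122), GSTU9 (1.81 ± 0.28, adjusted p = 0.000351), GSTU12 (1.73 ± 0.38, adjusted p = 0.00241) and GSTU4 (1.61 ± 0.24, adjusted p = 0.00045). GSTU3 also rose (1.15 ± 0.41, adjusted p = 0.0468). Among inoculated libraries, GSTU3, GSTU9, GSTU11 and GSTU12 passed the filter only at W6, W7 or W8, so their slopes are no independent result. The slopes of GSTF3, GSTF2 and GSTF7 were close to each other, at 0.99 ± 0.11, 0.89 ± 0.11 and 0.88 ± 0.11. GSTU17 had the steepest fall, -0.48 ± 0.062 (adjusted p = 3.86e-05), followed by GSTU26 with -0.27 ± 0.082, GSTU5 with -0.17 ± 0.04 and GSTU18 with -0.16 ± 0.036.

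**Figure D5:**
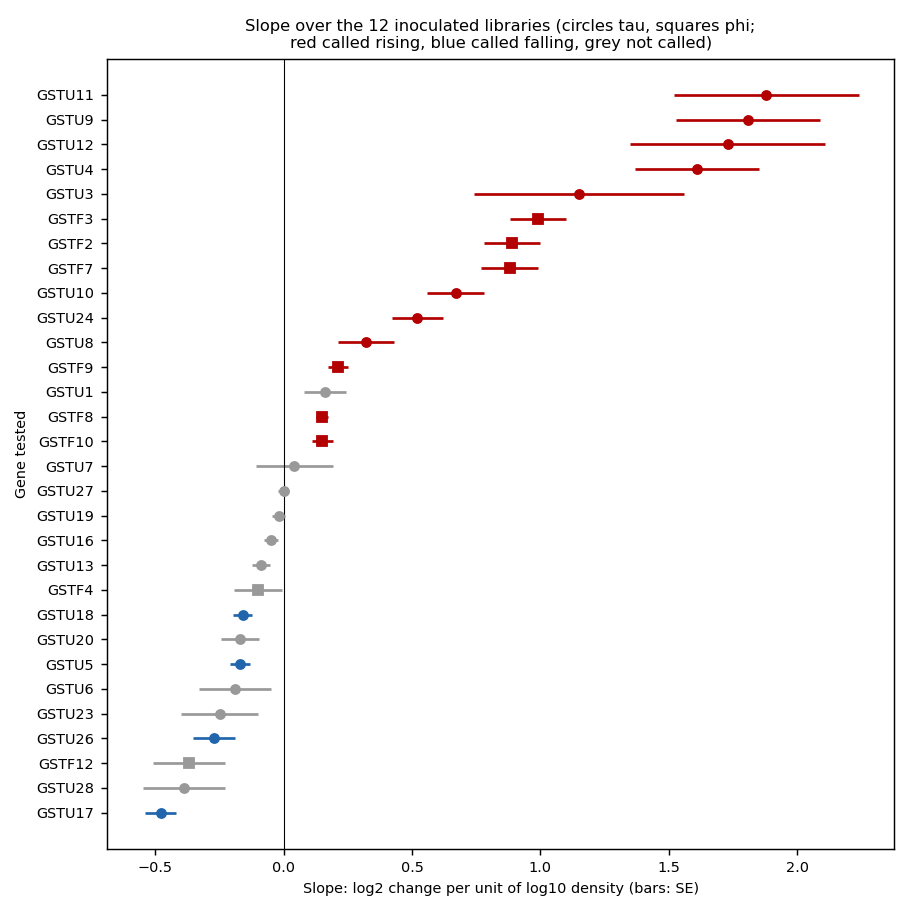
Slope with its SE, as log2 change per unit of log10 density over the 12 inoculated libraries, for the 30 genes tested (circles tau, squares phi). GSTU11 lies at the top with 1.88 and GSTU17 at the bottom with -0.48.

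Among other genes of glutathione metabolism, 18.5% and 17% of all genes called higher and lower at W8 are the shares to read the counts against. Of 4 genes of glutathione synthesis and reduction, glutathione synthetase GSH2 was called higher at W8 against mock (log2 fold change 0.25 ± 0.065, adjusted p = 0.00488) and the plastid and mitochondrial glutathione reductase GR lower (-0.30 ± 0.06, adjusted p = 0.000681). Without mock replicate 3 the cytosolic reductase GR1 was called lower too (-0.26 ± 0.095, adjusted p = 0.036). Of 4 transporters of the ABCC family, whose members are known for carrying glutathione conjugates, ABCC4 was higher, with 9.23 ± 1.19 CPM in mock and 27 ± 6.3 at W8 (SD, n = 3; log2 fold change 1.55 ± 0.22, adjusted p = 0.000165). ABCC3 was not called with all libraries (0.60 ± 0.44, adjusted p = 0.332) and was higher without mock replicate 3 (1.47 ± 0.27, adjusted p = 0.00182).

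Of 7 genes of glutathione breakdown tested, 3 were called higher and 1 lower, where 18.5% and 17% of all genes were. GGT4, the vacuolar enzyme that starts the breakdown of glutathione conjugates, went from 32.1 ± 2.56 CPM in mock to 61.6 ± 5.72 at W8 (SD, n = 3; log2 fold change 0.94 ± 0.079, adjusted p = 6.22e-08), and was already higher at W7 (0.45 ± 0.08, adjusted p = 0.00107). The lower gene was AT5G26220, a cytosolic gamma-glutamyl cyclotransferase gene (-1.04 ± 0.16, adjusted p = 0.000224).

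Of 11 glutathione transferases of other classes tested, 2 were higher and 3 lower, shares near the 18.5% and 17% of all genes. GSTZ1, the zeta enzyme of tyrosine breakdown, rose by 0.92 ± 0.11 on the log2 scale (adjusted p = 8.86e-06), while the lambda gene GSTL2 had -0.36 ± 0.085 (adjusted p = 0.00252). The other 3 were the theta gene GSTT3 (higher) and the dehydroascorbate reductases DHAR2 and DHAR3 (lower). Without mock replicate 3 the lambda gene GSTL1 was called higher as well (adjusted p = 0.00788), which made 3 higher and 3 lower (20.5% and 17.8% of all genes).

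Of 8 factors known to act on glutathione transferase promoters, 4 were higher and none lower, again beside 18.5% and 17% of all genes. They included TGA1 (0.53 ± 0.10, adjusted p = 0.000455), TGA3 (0.51 ± 0.084, adjusted p = 0.000114) and SCL14, a partner of TGA factors, (0.31 ± 0.061, adjusted p = 0.000499). Of 10 other detoxification genes tested, 4 were higher and 1 lower beside the same shares, led by the glucosyltransferase UGT73B4 (2.65 ± 0.60, adjusted p = 0.0019) and the cytochrome P450 CYP81D11 (1.89 ± 0.64, adjusted p = 0.0305). Without mock replicate 3, 7 were higher and none lower (20.5% and 17.8% of all genes), and CYP81D8, at 43.7 ± 66.8 CPM in mock (SD, n = 3), was among them (log2 fold change 3.30 ± 0.79, adjusted p = 0.0087). At W7, over these 6 lists, 4 genes were called higher (GGT4, GSTZ1, SCL14 and CYP81D11) and 2 lower (AT5G26220 and DHAR2). The numbers tested in each list were those at W8, and 6.29% and 6.77% of all genes were called higher and lower at W7. At W5 and W6 none was called by edgeR, against 0.18% and 1.28% of all genes.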

How the data were processed

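The table holds raw counts of reads in each gene, as deposited by the authors. The submitters' processing notes name cutadapt 1.9.1, featureCounts 1.22.2 and build TAIR10. No aligner or strand setting is stated in the sources used here, so reads of overlapping genes could not be told apart. Counts were analysed with edgeR 4.0.16 in R 4.3.3: filterByExpr (minimum count 10, minimum total 15), TMM scaling, then glmQLFit (robust) and glmQLFTest, with 1 mean for each group. Adjustment was by Benjamini-Hochberg over every gene tested. The SE was derived from the log2 fold change and its F statistic. On simulated counts for W8 against mock over 19237 genes, the test recovered 98% and 82% of genes changed by 1 and -1 on the log2 scale. The changed genes were drawn from those with a mean over 1 CPM, so these rates do not cover scarcer genes. DESeq2 1.42.0 and limma 3.58.1 served as alternatives.

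The count table gives no coordinates; those printed, the exon overlaps and the sequences come from RefSeq TAIR10.1. Coding sequences were aligned pairwise with Biopython 1.88. Members and lists were chosen with earlier results of these data known. Values in every library are given for up to 12 called members with the largest fold change at W8 against mock, the most abundant genes per exon length of each class, and the most changed riser and faller of each array that held both. No pair of libraries of the same group agreed within sampling noise. Even W8 replicates 1 and 3, the closest of these pairs, gave a chi-square of 3.5 for each degree of freedom. Pairs from different groups were not compared in this way.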

Additional observations from a re-analysis of the deposited data

How the results depend on the processing

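Counts of called members were recomputed under other scalings, filters, tools and libraries. Shares of all genes called under these settings are not given here, beyond those stated above without mock replicate 3. The counts therefore show only how far the calls depended on the setting. At W7 against mock the count of 2 became 4 with DESeq2 and 6 without mock replicate 3 and W8 replicate 2, and leaving out 1 library gave 1 to 5, the highest without mock replicate 3. At W6 against mock it went from 0 to 1 without mock replicate 3 and W8 replicate 2. At W7 against W6 it went from 0 to 3 with DESeq2, 1 with limma voom, 2 with robust=FALSE, 3 without mock replicate 3 and W8 replicate 2, and 2 with the 2 groups fitted alone, and leaving out 1 library gave 0 to 1. At W8 against W7 the count of 11 ran from 7 (without W7 replicate 1) to 10 with libraries left out. At W8 against mock the count of 16 ran from 12 to 18. Of 463 gene values at W8 against mock, 421 kept direction and call, 32 lost the call, 6 gained it and 4 reversed. The reversals were in uncalled genes: GSTU9 became 4.13 without mock replicate 3 and 2.69 without W8 replicate 2 too, and GSTU11 became 8.61 and 8.17. With 1 library left out, GSTU9 ran from -2.11 to 4.13 and GSTU11 from -1.57 to 8.61. The GSTU11 values against mock libraries at 0 are no bounds. The cause was not tested. Upper-quartile scaling moved the median of all genes at W8 to -0.068.

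Of 30 correlations between same-numbered libraries, from -0.305 to 0.32, 6 were over 0.1. With 3 libraries per group, these values cannot decide whether the replicate numbers pair the libraries. With the replicate number as a block, 15 members were called at W8 against mock (9 higher, 6 lower), 18 at W8 against W5, 2 at W7, 14 for any difference and 18 by slope. The shares of all genes called with the block are not given here, so these counts cannot be read against them. At this depth, genes with a few counts per library limit what can be called.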
